A study of Mus musculus with 6 samples.

Results

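The 10 genes described here encode enzymes of branched-chain amino acid catabolism, the mitochondrial breakdown of leucine, isoleucine and valine, together with the kinase and the phosphatase that set its pace. They are Bckdha, Bckdhb, Dbt and Dld of the branched-chain keto acid dehydrogenase complex, the aminotransferases Bcat1 and Bcat2, the regulators Bckdk and Ppm1k, and Ivd and Mccc1 of the leucine branch. They were taken by gene symbol from 55385 genes, each symbol matched 1 gene, and all 10 were among the 19427 genes that passed a filter on low counts. The list was selected on the same contrast that is described below, because the difference of Bckdha between these groups was known when the list was chosen. The values of the 10 genes between the groups are therefore a description and carry no test.

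Leucine, isoleucine and valine first lose their amino group to an aminotransferase, Bcat1 in the cytosol or Bcat2 in mitochondria, and the keto acids that result are oxidized by the branched-chain keto acid dehydrogenase complex in the step that commits them to breakdown. The kinase Bckdk phosphorylates the subunit encoded by Bckdha and shuts the complex down, and the phosphatase Ppm1k removes the phosphate. Fat and the lactating mammary gland are both known for using these amino acids.

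The study asked how DMHCA, a sterol that activates the LXR nuclear receptors, acts on mammary tumors that arise in a fibrotic gland, and tumor RNA of mice with and without DMHCA was sequenced. All mice were females of the NeuT/ATTAC strain, in which the MMTV promoter drives an activated form of rat ErbB2[V664E] and the FABP4 promoter drives FKBPv-caspase-8 in fat cells. In both groups AP20187, which dimerizes this caspase and removes part of the mammary fat, was injected i.p. at 0.4 mg/kg 3 times per week from 6 weeks of age. From 8 weeks of age until tumors appeared, the DMHCA group also ate a diet with 0.05% DMHCA, a dose of about 100 mg/kg; the age of each mouse at that time was not given in the sources used here. The treatment label of the controls names AP20187 and vehicle and can mean either AP20187 with its vehicle or the vehicle alone; the study's description of AP-treated tumor-bearing mice was followed. The labels call the tissue a fibrotic mammary gland, whereas the study's text calls it tumor.

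There were 3 control and 3 DMHCA libraries. The depth, as the total of RSEM's expected counts (its estimates of the reads from each gene, rounded here), was 53939201 for control 1, 63420620 for control 2 and 46358654 for control 3. For DMHCA 1, DMHCA 2 and DMHCA 3 it was 55539411, 52755446 and 52330938. Each pair within a group was compared, using genes whose count averaged 100 or more. Between DMHCA 1 and DMHCA 3 the biological coefficient of variation was 0.0327, and a chi-square test set at 0.05 found a difference in 18.2% of 13380 genes. In the remaining pairs the coefficient was 0.376 to 0.579, and 82% to 87% of genes differed. These libraries were so close that they were counted as 1 sample, by summing their counts or averaging their TPM (a level corrected for gene length and depth), which left 3 control and 2 DMHCA samples.

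The tissue held mammary epithelium in every library. Summed TPM of 5 epithelial markers was 3914, 3375 and 3057 in controls 1, 2 and 3, and 4730 and 4569 in DMHCA 1+3 and DMHCA 2, and Krt18, a keratin of luminal cells, was the most abundant by the mean, although Epcam was above it in every sample but DMHCA 1+3. Erbb2 itself was listed at 439, 191 and 210 TPM in the controls and at 415 and 635 TPM in the DMHCA samples; whether reads of the rat transgene were counted on the mouse gene was not tested.

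Control libraries 1 and 3 stood apart by markers of other tissues. In control 1 the salivary gland genes Bpifa2, at 5131 TPM, and Amy1, at 1273 TPM, were far above their levels in any other library (at most 21.3 and 16.6 TPM). Control 3 had the highest summed TPM of 10 adipocyte markers (1417, against 333 and 150 in controls 1 and 2), of 7 B cell and lymph node markers (411, against 45.9 and 1.3) and of 6 milk protein genes (55528, against 24139 and 16839). For the 10 genes, fold changes without each of these libraries are given with their levels; the other gene lists are given with all samples only.

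In what follows, the direction of a mean and the overlap of groups are those of normalized counts (expected counts scaled to a common library size) unless TPM is named, and the most abundant gene of a list is that with the highest TPM averaged over the 5 samples. The scales differ as a whole: in normalized counts 9327 of the 19427 genes tested had a higher and 10097 a lower mean with DMHCA, and in TPM 11772 had a higher and 7645 a lower mean.

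Across all 19427 genes, 0 genes (0.0%) passed an adjusted p under 0.05 in edgeR's quasi-likelihood test with Benjamini-Hochberg adjustment on the 5 samples, the smallest adjusted p was 0.644, and 1478 genes had an unadjusted p under 0.05. DESeq2 on the same 5 samples called 50 genes higher (0.249%) and 194 genes lower (0.967%) with DMHCA, none of them among the 10. DESeq2 on the 6 libraries as separate samples, which counts DMHCA 1 and 3 as independent, called 275 genes higher (1.29%) and 571 genes lower (2.68%), and 2 of the 10, Bckdha and Bckdk, were in that count of higher genes. For genes selected on this contrast these counts are a description and not a test. Both DMHCA samples lay above all 3 controls for 3 of the 10 genes, Bckdha, Bckdk and Ivd, and below all 3 for 0 of them. Over all genes tested these shares were 13.8% above and 12.2% below. In TPM the same 3 genes lay above and 0 below, while over all genes tested the shares were 20.3% and 6.97%. Without control 1, without control 2 or without control 3 the same 3 genes lay above, while over all genes the share above was 19.3%, 21.1% and 18.1%. Without control 2 Bcat1 lay below, and otherwise 0 of the 10 did, while the share of all genes below was 17.8%, 21.5% and 16.6%. The median log2 fold change, DMHCA over control, was 0.19 for the 10 genes and -0.03 for all genes tested. Without DMHCA 2 the median of the 10 genes was 0.53.

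Bckdha, which encodes the catalytic alpha subunit of the complex (ENSMUSG00000060376, on the minus strand at chr7:25629946-25658981 of GRCm38), was the most abundant of the 10 in the DMHCA samples. Its level was 94.8, 33.2 and 54.3 TPM in controls 1, 2 and 3, and 218, 180 and 226 TPM in DMHCA libraries 1, 2 and 3. The lowest DMHCA library was thus above the highest control library, control 1, in which the level was higher than in the other controls. Its normalized counts were 7484, 3517 and 4648 in the controls, and 18108 in DMHCA 1+3 and 13411 in DMHCA 2. The log2 fold change was 1.60 with a standard error (SE) of 0.38, a 3.02-fold difference, and 322 of the 19427 genes tested had a higher one. It was 1.94 without control 1, 1.38 without control 2 and 1.51 without control 3. In bulk tissue, fewer cells of a type and less RNA per cell cannot be told apart, and this holds for every level given here.

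Bckdhb encodes the beta subunit, which pairs with the product of Bckdha in the decarboxylase of the complex. Its level was 20.4, 30.2 and 26.0 TPM in the controls and 27.5 and 21.3 TPM in DMHCA 1+3 and DMHCA 2, so the groups overlapped. Its log2 fold change was -0.21 (SE 0.35), and it was -0.38 without control 1, 0.04 without control 2 and -0.27 without control 3. The ratio of Bckdha to Bckdhb, in TPM, was 4.65, 1.10 and 2.09 in controls 1, 2 and 3, and 8.09 and 8.44 in the DMHCA samples. Control 2 had nearly equal transcript levels of the partner subunits, and both DMHCA samples were above every control. Every ratio that includes Bckdha carries the difference on which the list was selected, so its separation of the groups is not a further result. The share of other gene pairs whose ratios do not overlap was not counted.

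Dbt encodes the acyltransferase that forms the core of the complex. It was at 13.8, 11.2 and 11.4 TPM in the controls, 26.6 TPM in DMHCA 1+3 and 7.99 TPM in DMHCA 2. The DMHCA samples lay on either side of the controls, and the log2 fold change of 0.30 (SE 0.49) became 0.96 without DMHCA 2. It was 0.31 without control 1 and 0.23 without control 3. The ratio of Bckdha to Dbt in TPM was 6.89, 2.97 and 4.78 in the controls and 8.34 and 22.5 in the DMHCA samples, also without overlap.

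Dld encodes the dihydrolipoamide dehydrogenase that the complex shares with the pyruvate and oxoglutarate dehydrogenases and with glycine cleavage. It was the most abundant of the 10 in controls 2 and 3, at 78.9, 74.8 and 64.8 TPM in controls 1, 2 and 3, and at 64.3 and 95.1 TPM in DMHCA 1+3 and DMHCA 2. In TPM the control values lay between those of the DMHCA samples. In normalized counts control 2, at 10785, was above both DMHCA samples, at 6977 and 9587. Its log2 fold change was -0.08 (SE 0.30), and its sign differed between settings, from -0.29 without DMHCA 2 to 0.13 on the scale of log2(TPM + 0.1). Without control 1 and without control 3 it was -0.13 and -0.21.

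**Figure D1:**
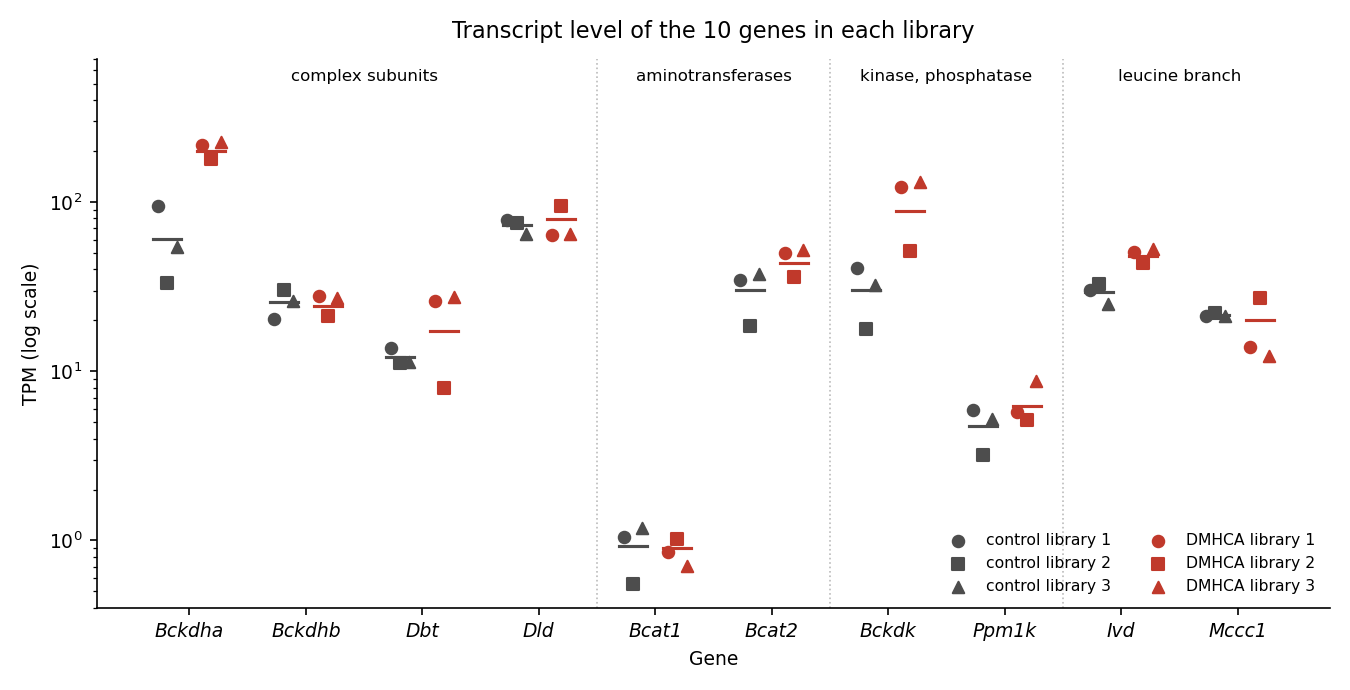
TPM (log scale) of the 10 genes in each of the 6 libraries, with controls in gray and DMHCA in red; horizontal lines are the mean of 3 control samples and of 2 DMHCA samples, with DMHCA 1 and 3 averaged first. Bckdha, Bckdk and Ivd have every red point above every gray one, Bckdha with 180 to 226 TPM against 33.2 to 94.8 TPM.

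Of the aminotransferases, the mitochondrial Bcat2 carried nearly all of the transcripts. Bcat2 was at 34.7, 18.6 and 37.5 TPM in the controls and at 51.0 and 36.0 TPM in DMHCA 1+3 and DMHCA 2. The lower DMHCA sample lay within the range of the controls, and the log2 fold change was 0.38 (SE 0.32). It was 0.42 without control 1, 0.22 without control 2, 0.51 without control 3 and 0.71 without DMHCA 2. The cytosolic Bcat1 was at 1.05, 0.55 and 1.19 TPM in the controls and at 0.78 and 1.02 TPM in the DMHCA samples, and had 81.9 to 127 normalized counts in any sample. Its log2 fold change was -0.30 (SE 0.50), with -0.24 without control 1, -0.48 without control 2 and -0.20 without control 3. Per length, Bcat2 was 33.0, 33.7 and 31.6 times Bcat1 in the controls, and 65.4 and 35.3 times in the DMHCA samples. The controls were close together in this ratio, and DMHCA 2 was only slightly above them.

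Bckdk encodes the kinase that switches the complex off (ENSMUSG00000030802, on the plus strand at chr7:127904082-127910221). Its level was 40.6, 17.9 and 32.5 TPM in controls 1, 2 and 3, and 124, 51.2 and 131 TPM in DMHCA libraries 1, 2 and 3. All DMHCA libraries were above all controls, and DMHCA 2 was much nearer to control 1 than to the other DMHCA libraries. In normalized counts it had 4044, 2334 and 3383 in the controls, 12922 in DMHCA 1+3 and 4834 in DMHCA 2, and the log2 fold change was 1.45 (SE 0.46), 2.73-fold. It was 1.63 without control 1, 1.26 without control 2, 1.47 without control 3 and 2.03 without DMHCA 2.

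Ppm1k, the opposing phosphatase, was at 5.87, 3.19 and 5.22 TPM in the controls and at 7.24 and 5.18 TPM in DMHCA 1+3 and DMHCA 2. The groups overlapped, and the log2 fold change was 0.08 (SE 0.32), with 0.04 without control 1 and 0.19 without control 3. DMHCA libraries 1 and 3, otherwise nearly equal, were at 5.72 and 8.75 TPM for this gene. The mean transcript length that RSEM gave it was 5052 bases in DMHCA 1 and 3682 bases in DMHCA 3, and ranged up to 5188 bases in control 2, so its TPM also carries a difference in the estimated mix of transcripts. The ratio of kinase to phosphatase, Bckdk over Ppm1k in TPM, was 6.91, 5.60 and 6.22 in the controls, and 17.6 and 9.88 in the DMHCA samples. In normalized counts it was 3.75, 2.36 and 2.64 in the controls and 9.33 and 4.996 in the DMHCA samples. On both scales both DMHCA samples were above every control. The ratio of Bckdha to the kinase Bckdk, by contrast, was 2.34, 1.86 and 1.67 in the controls and 1.75 and 3.52 in the DMHCA samples, which overlapped.

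Ivd encodes isovaleryl-CoA dehydrogenase, the next enzyme of leucine breakdown after the complex. It was at 30.3, 32.9 and 25 TPM in the controls and at 51.0, 43.9 and 52.7 TPM in DMHCA libraries 1, 2 and 3. The DMHCA libraries were all above the controls in TPM, while in normalized counts the distance was small, with 4117 in control 2 and 4287 in DMHCA 2. The log2 fold change was 0.58 (SE 0.31), and it was 0.57 without control 1 and 0.40 without control 3.

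Mccc1 encodes the biotin-carrying alpha subunit of methylcrotonyl-CoA carboxylase, which acts on the product of Ivd. It was at 21.1, 22.2 and 21.1 TPM in the controls, 13.2 TPM in DMHCA 1+3 and 27.3 TPM in DMHCA 2. The controls were nearly equal in TPM and the DMHCA samples lay on either side of them. The log2 fold change was -0.05 (SE 0.36) and became -0.53 without DMHCA 2. Without control 1 it was 0.00 and without control 3 it was -0.21. Its mean transcript length ranged from 1670 bases in control 3 to 2425 bases in control 1. Mccc2, the beta subunit of the same carboxylase, was at 20.4, 26.1 and 22.6 TPM in the controls and at 29.5 and 34.4 TPM in the DMHCA samples. The ratio of Mccc1 to Mccc2 in TPM was 1.04, 0.85 and 0.93 in the controls and 0.45 and 0.79 in the DMHCA samples, so both DMHCA samples were below every control in TPM. In normalized counts, without the correction for length, the ratio was 1.29, 0.81 and 0.91 in the controls and 0.56 and 0.93 in the DMHCA samples, which overlapped.

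**Figure D2:**
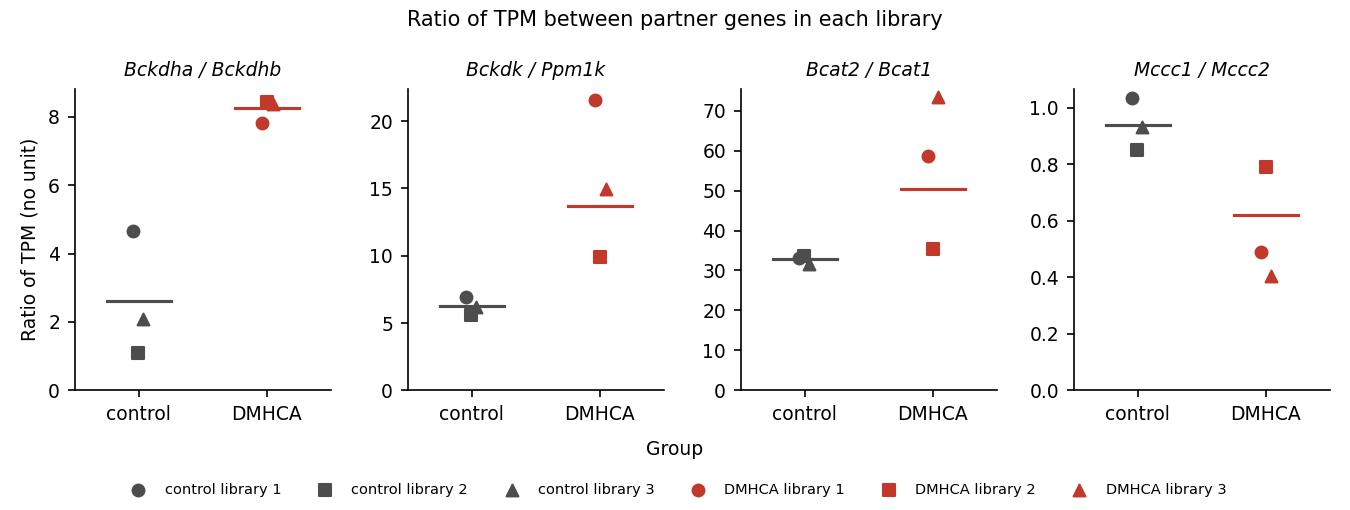
Ratio of TPM (no unit) between partner genes in each library, for the alpha over the beta subunit, the kinase over the phosphatase, the mitochondrial over the cytosolic aminotransferase, and the subunits of methylcrotonyl-CoA carboxylase; lines are means of 3 control and 2 DMHCA samples, DMHCA 1 and 3 counted as 1. The ratio of Bckdha to Bckdhb was 1.10 to 4.65 in controls and 8.09 and 8.44 in the DMHCA samples.

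Taken as a pool, the transcripts of the 10 genes summed to 341, 245 and 279 TPM in controls 1, 2 and 3, and to 592 and 469 TPM in DMHCA 1+3 and DMHCA 2. Bckdha made up 27.8%, 13.6% and 19.5% of this sum in the controls and 37.5% and 38.4% in the DMHCA samples. Bckdk made up 11.9%, 7.30% and 11.6% in the controls, 21.5% in DMHCA 1+3 and 10.9% in DMHCA 2. Without Bckdha and Bckdk, the other 8 genes summed to 206, 194 and 192 TPM in the controls and to 242 and 238 TPM in the DMHCA samples. In normalized counts the 8 genes summed to 20278, 24022 and 18266 in the controls and to 23686 and 21882 in the DMHCA samples, so the sum of the 8 overlapped between groups on that scale, while that of all 10 did not on either.

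Of 30 further genes of the pathway, all were tested and 0 passed in edgeR, 5 had an unadjusted p under 0.05, 18 had a higher and 12 a lower mean with DMHCA, and the median log2 fold change was 0.05. In TPM 20 had a higher and 10 a lower mean, and 7 lay above (23.3%) and 2 below (6.67%) all controls, beside 20.3% and 6.97% of all genes tested on that scale. In normalized counts 3 were above all controls in both DMHCA samples, Acadsb, Echs1 and Slc7a8, and 2 below, Slc43a2 and Slc6a15. Over all genes tested the shares were 13.8% above and 12.2% below on that scale. An unadjusted p under 0.05 in edgeR was found for 1478 of all 19427 genes. DESeq2 on the 6 libraries called Echs1 higher and Slc6a15 lower, and on the 5 samples it called Slc6a15 alone. This list was also written with results of these data known. Names of genes in it that lie outside the rule for named genes, which asks for groups that do not overlap and a log2 fold change of at least 1 in size, were chosen after their values were seen.

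Of the leucine branch, Mccc2, Auh and Oxct1 were in this list, and all 3 had a higher mean. In normalized counts the groups overlapped in all 3, and in TPM both DMHCA samples were above every control in all 3. Oxct1, which activates ketone bodies for oxidation, was the most abundant at 116, 115 and 81.5 TPM in the controls and 138 and 138 TPM in the DMHCA samples. Its log2 fold change was 0.15 (SE 0.35).

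Among 8 genes of the isoleucine and valine branches, 3 had a higher and 5 a lower mean in normalized counts, and 6 a higher and 2 a lower mean in TPM. Hsd17b10, a dehydrogenase of the isoleucine branch, had the highest level averaged over the samples, at 128, 159 and 105 TPM in the controls and 108 and 139 TPM in DMHCA 1+3 and DMHCA 2. Acadsb, the short/branched-chain acyl-CoA dehydrogenase that takes the place of Ivd in the isoleucine branch, was at 98.0, 41.4 and 81.5 TPM in the controls and 200 and 110 TPM in the DMHCA samples. Control 2 was the lowest, as it was for Bckdha and Bckdk, and DMHCA 2 was close to control 1. The log2 fold change of Acadsb was 0.93 (SE 0.39). Echs1, an enoyl-CoA hydratase shared with fatty acid oxidation, was at 80.4, 47.0 and 68.2 TPM in the controls and 133 and 137 TPM in the DMHCA samples. Here the DMHCA samples were nearly equal and well above the controls, with a log2 fold change of 0.85 (SE 0.24).

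Of 7 genes that carry propionyl-CoA from isoleucine and valine into the citric acid cycle, 6 had a higher and 1 a lower mean, with a median log2 fold change of 0.06 and groups that overlapped in every gene. Mcee, methylmalonyl-CoA epimerase, was the most abundant, at 83.2, 54.8 and 74.6 TPM in the controls and 80.3 and 78.5 TPM in the DMHCA samples.

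The 8 transporters had 3 higher and 5 lower means. Of the higher ones, Slc7a8 had a log2 fold change of 0.79 (SE 0.42) and Slc25a44 one of 0.13 (SE 0.29). Slc6a14, at 1.69 (SE 0.67), overlapped between groups, with 7.57, 3.95 and 3.26 TPM in the controls. It was at 5.555 TPM in DMHCA 1+3 and 31.5 TPM in DMHCA 2. Slc3a2, the heavy chain that pairs with the amino acid exchangers Slc7a5 and Slc7a8, was the most abundant at 196, 191 and 119 TPM in the controls and 156 and 119 TPM in the DMHCA samples, which overlapped. Slc43a2, a facilitative carrier of large neutral amino acids, had 3045, 3293 and 3288 normalized counts in the controls and 2006 and 1265 in the DMHCA samples. The controls were close together and both DMHCA samples lay below them, with a log2 fold change of -0.97 (SE 0.29). Slc6a15, a sodium-driven carrier of branched-chain amino acids, had expected counts of 234, 17 and 500 in controls 1, 2 and 3 and of 4, 2 and 3 in DMHCA libraries 1, 2 and 3. Its counts were highest in control 3 and control 1, the libraries with markers of other tissues, and the part of those tissues in this difference was not tested. Of the 4 transcription factors tied to this pathway or to its fuel use, Ppargc1a was the most abundant by the mean, at 6.01, 6.89 and 1.98 TPM in the controls and 4.58 and 8.32 TPM in the DMHCA samples. In control 3 it was below Mlxipl and Klf15, and all 4 overlapped between groups.

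Of 20 genes of sister complexes and their partners, all were tested and 0 passed in edgeR, 1 had an unadjusted p under 0.05, 13 had a higher and 7 a lower mean in normalized counts, and the median log2 fold change was 0.10. In TPM 18 had a higher and 2 a lower mean, and 4 lay above (20%) and 0 below all controls, beside 20.3% and 6.97% of all genes tested, of which 11772 had a higher and 7645 a lower mean in TPM. In normalized counts 4 were above all controls in both DMHCA samples and 0 below, beside 13.8% and 12.2% of all genes tested. The 4 were Pdhx, Pdpr, Dhtkd1 and Gldc. In the pyruvate dehydrogenase complex, Pdha1, the alpha subunit that corresponds to Bckdha, was at 116, 111 and 116 TPM in the controls and 106 and 134 TPM in the DMHCA samples, and overlapped. The ratio of Bckdha to Pdha1 in TPM was 0.82, 0.30 and 0.47 in the controls and 2.10 and 1.34 in the DMHCA samples. Bckdha was thus the less abundant of the pair in every control and the more abundant in both DMHCA samples. This ratio, too, carries the difference of Bckdha on which the list was selected. Pdhb, the beta subunit, was the most abundant of that complex over the samples, at 102, 127 and 115 TPM in the controls and 109 and 141 TPM in the DMHCA samples.

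The 7 kinases and phosphatases of pyruvate dehydrogenase had 5 higher and 2 lower means. Pdk2, the most abundant, was at 36.7, 34.5 and 21 TPM in the controls and 42.8 and 52.5 TPM in the DMHCA samples; in TPM the groups did not overlap, but in normalized counts they did. In the oxoglutarate and oxoadipate dehydrogenases, all 3 means were higher, and Dlst, the core acyltransferase, was the most abundant at 83.6, 66.6 and 57.6 TPM in the controls and 72.6 and 145 TPM in the DMHCA samples. In the glycine cleavage system, Gldc, the glycine decarboxylase, had 742, 385 and 357 normalized counts in the controls, 3956 in DMHCA 1+3 and 874 in DMHCA 2. DMHCA 2 was only slightly above control 1, and the log2 fold change of Gldc was 2.29 (SE 0.66); DESeq2 on the 6 libraries called it higher and on the 5 samples it did not. Amt, the aminomethyltransferase of that system, was the most abundant there by a small margin of the mean, at 16.9, 20.9 and 12.8 TPM in the controls and 24.7 and 14.6 TPM in the DMHCA samples, and Gcsh was above it in controls 1 and 3 and in DMHCA 2. Of the 3 genes that make or attach the lipoyl group of these complexes, 1 had a higher and 2 a lower mean in normalized counts, all 3 had a higher mean in TPM, and Lias was the most abundant at 22.7, 17.4 and 20.2 TPM in the controls and 21.3 and 26.3 TPM in the DMHCA samples.

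**Figure D3:**
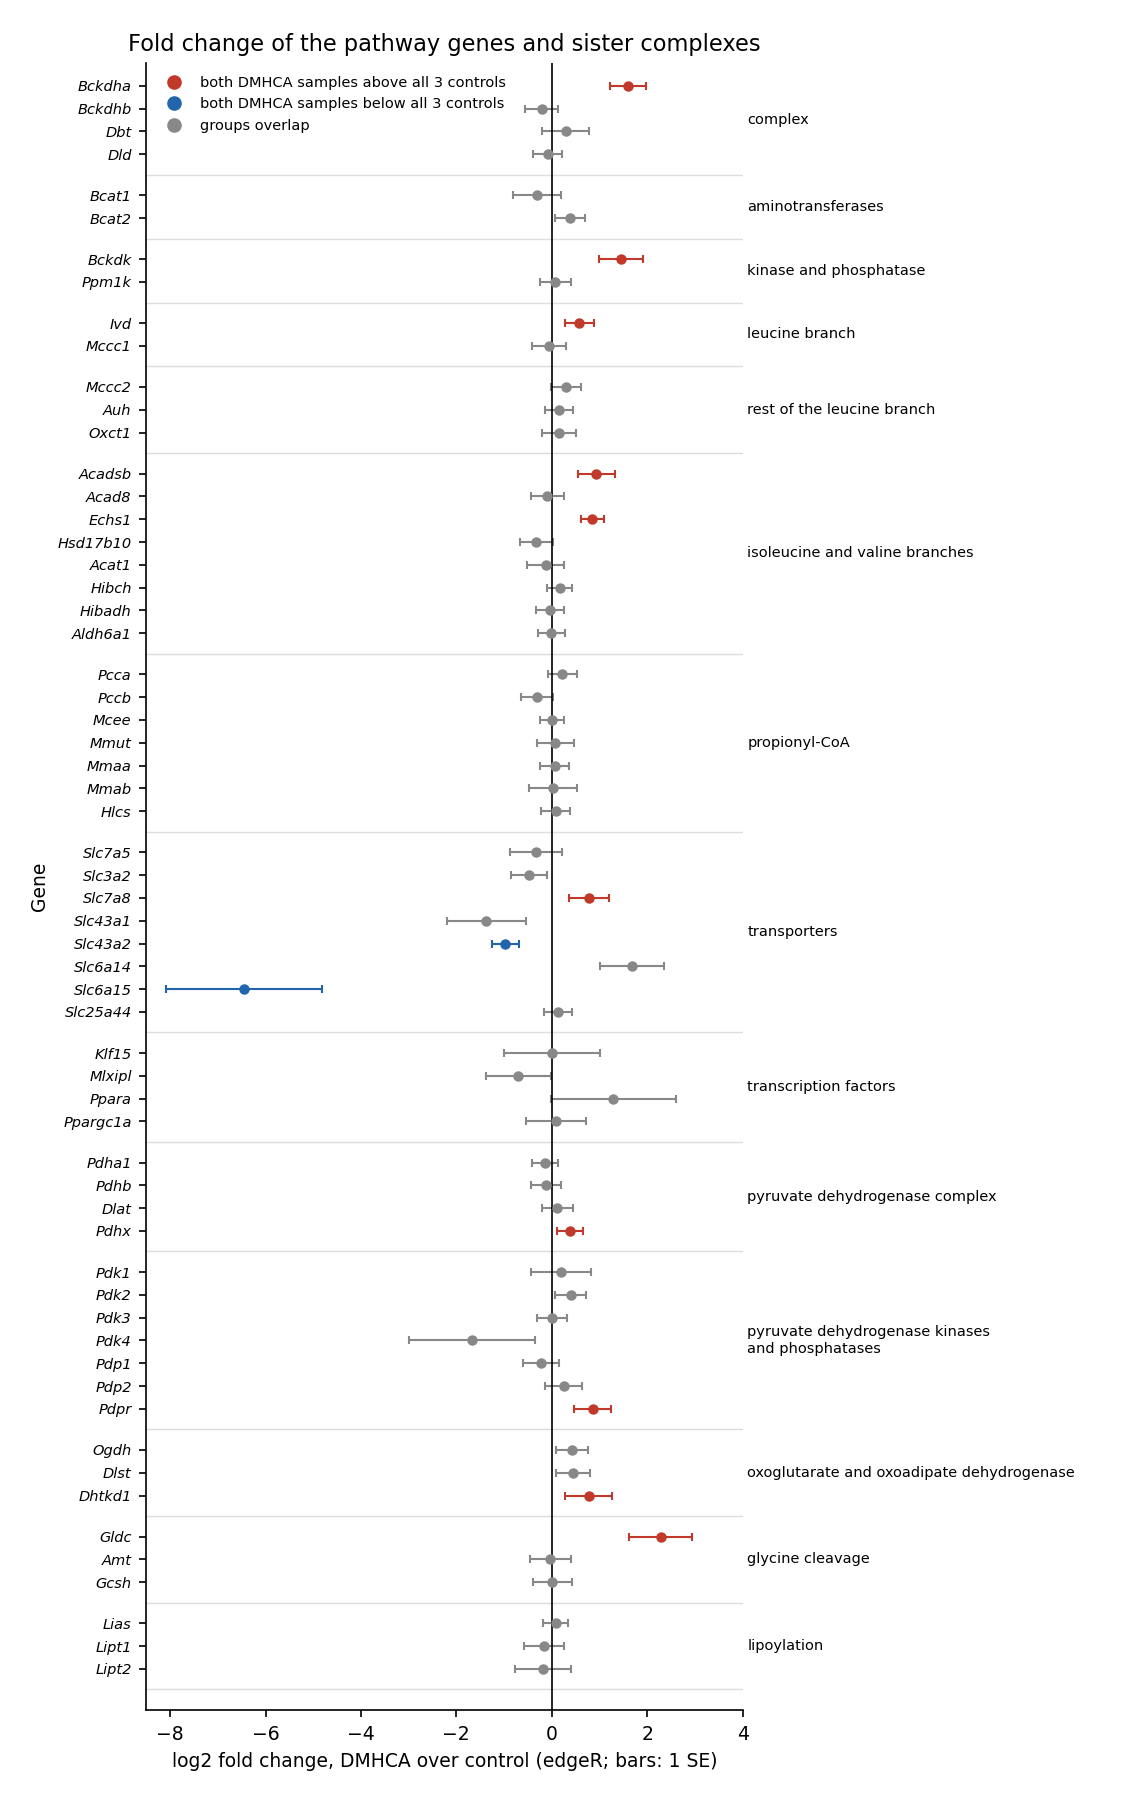
Log2 fold change, DMHCA over control, with 1 SE, of the 10 genes, 30 further pathway genes and 20 genes of sister complexes, by edgeR on 3 control and 2 DMHCA samples; red and blue mark genes whose DMHCA samples lie above or below all controls. Bckdha at 1.60 and Bckdk at 1.45 stand to the right of the other members.

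Fat uses branched-chain amino acids, and in normalized counts all 10 adipocyte markers lay below every control in both DMHCA samples, beside 12.2% of all genes tested. In TPM 7 of the 10 did, beside 6.97% of all genes tested, and Lpl, Plin1 and Retn overlapped with control 2. Their summed TPM was 333, 150 and 1417 in controls 1, 2 and 3, and 91.3 and 97.0 in the DMHCA samples, and Fabp4 was the most abundant with 168, 113 and 780 TPM against 67.2 and 65.5 TPM. In edgeR 0 of the 10 markers passed and 9 had an unadjusted p under 0.05, beside 1478 of all 19427 genes tested. DESeq2 called 7 of the 10 markers lower on the 5 samples and 9 on the 6 libraries. It called 0.967% and 2.68% of all genes lower. The part of fat content in the values of the 10 genes was not tested. Of 4 markers of brown fat, which oxidizes branched-chain amino acids, Ucp1 and Elovl3 were under 1 TPM in every library. Cox8b was the most abundant by the mean, but in DMHCA 2 it was at 4.02 TPM and Cidea at 39.0 TPM. The 4 summed to 29.8, 40.8 and 43.0 TPM in the controls and 24.9 and 43.0 TPM in the DMHCA samples.

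Skeletal muscle, in which Bcat2 is abundant, was present in every library: 8 markers summed to 635, 1099 and 771 TPM in the controls, 966 TPM in DMHCA 1+3 and 274 TPM in DMHCA 2, with Tnnt3 the most abundant by the mean but not in control 3 or DMHCA 2. All 8 overlapped between the groups. The salivary gland list summed to 10659, 1341 and 908 TPM in the controls and 3239 and 1063 TPM in the DMHCA samples; Aqp5, its most abundant gene in the other libraries, was at 1324 and 788 TPM in controls 2 and 3 and 3210 and 1049 TPM in the DMHCA samples, and Muc19 was under 1 TPM everywhere. B cell and lymph node markers, with Ccl19 the most abundant by the mean because of control 3, summed to 45.9, 1.3 and 411 TPM in the controls and 2.37 and 1.78 TPM in the DMHCA samples.

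Milk protein genes, led by Csn3, summed to 24139, 16839 and 55528 TPM in the controls and 27741 and 12205 TPM in the DMHCA samples, and overlapped in all 6 genes. The 6 fibroblast markers, led by Col3a1 except in control 3, where Dcn was higher, summed to 568, 239 and 1068 TPM in the controls and 502 and 487 TPM in the DMHCA samples. The 4 macrophage markers, led by Lyz2, summed to 634, 410 and 1460 TPM in the controls and 529 and 436 TPM in the DMHCA samples. In normalized counts Lyz2 of these and Fap of the fibroblast markers lay below every control in both DMHCA samples, beside 12.2% of all genes tested. In TPM both overlapped, beside 6.97% of all genes that lay below. The sums of the epithelial markers, given above, were higher in both DMHCA samples than in any control, as were Krt8 and Krt18 in TPM, and in normalized counts Krt8 alone. Of all genes tested, 20.3% lay above every control in TPM and 13.8% in normalized counts. In normalized counts 3 of the 5 had a higher and 2 a lower mean, with Epcam at a log2 fold change of -0.12 and Krt19 at -4.01, and Krt19 was highest in control 3. The part of these cell types in the values of the 10 genes was not tested.

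Bckdha, Bckdk and Bcat2 lie on chromosome 7, far apart from each other, and Ivd lies on chromosome 2. The 1541 genes tested on chromosome 7 had a median log2 fold change of 0.36, and the 1464 on chromosome 2 had one of 0.20, against -0.03 for all genes tested. The chromosomes of the other members had medians of -0.28 (chromosome 9, Bckdhb) and -0.14 (chromosome 6, Bcat1 and Ppm1k). Chromosome 3, with Dbt and Mccc1, was at -0.10, and chromosome 12, with Dld, at -0.07. Among the 10 tested genes on either side of Bckdha, 20 in all, the median was 0.65, both DMHCA samples were above all controls for 9 genes and below for 0, beside 13.8% and 12.2% of all genes tested, and no gene had a higher fold change than Bckdha. These shares of all genes apply to the counts around the other members as well. Exosc5, a subunit of the RNA exosome whose annotated start is 183 bases from that of Bckdha on the opposite strand, had 1688, 1008 and 1359 normalized counts in the controls and 2601 and 2336 in the DMHCA samples. Its groups did not overlap, and its log2 fold change was 0.87 (SE 0.30). B3gnt8 shares exon bases with Bckdha on the opposite strand; it had 448, 208 and 348 normalized counts in the controls and 1045 and 277 in the DMHCA samples, far fewer than Bckdha in each sample. Whether counting used strand is not given in the sources used here, so reads from the shared bases cannot be told apart.

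Around Bckdk the median of the 20 neighboring tested genes was 0.52, with 7 genes above and 1 below all controls. Gm49388 and Prss53, named after their values were seen, had a higher fold change than Bckdk, with log2 values of 3.01 (SE 1.70) and 1.60 (SE 0.83). The adjacent tested genes were Vkorc1, the vitamin K epoxide reductase, at 0.32 (SE 0.28), and Kat8, a histone acetyltransferase, at 0.54 (SE 0.40), of which Kat8 was above all controls. Around Bcat2 the median was 0.47, with 6 genes above and 0 below all controls, and the member itself at 0.38 was below it. Its neighbors were 0610005C13Rik, an antisense gene that shares exon bases with it at no more than 0.31 TPM, and Fut1, with log2 fold changes of 0.07 (SE 0.69) and 0.57 (SE 1.24).

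Around Ivd the median was 0.67, 10 of 20 neighbors lay above and 2 below all controls, and 11 had a higher fold change than Ivd. By order of start, its adjacent genes were Gm14091 at 0.65 (SE 0.57) and Bahd1 at 0.25 (SE 0.27). Knstrn, at chr2:118814003-118853957, starts before Gm14091 but ends nearer to Ivd. Its log2 fold change was 0.81 (SE 0.43), and its groups overlapped. Around the other 6 members the window medians ranged from -0.21 at Mccc1 to 0.14 at Dbt. By order of start, their adjacent genes were Ttk and Gm8228 for Bckdhb, Rtca and Lrrc39 for Dbt, Lamb1 and Cbll1 for Dld, and Gm44068 and Lrmp for Bcat1. Sox5, at chr6:143828425-144781977, starts before Gm44068 but ends nearer to Bcat1. Its log2 fold change was 0.65 (SE 0.29), and both DMHCA samples were above all controls. Those of Ppm1k were Gm45193 and Gm27896, and those of Mccc1 were 8430422M14Rik and Gm43080. Exon bases of Mccc1 are also shared by Gm15952 and Mccc1os on the opposite strand, at no more than 1.25 TPM. Whether position has a part in any of these values was not tested.

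**Figure D4:**
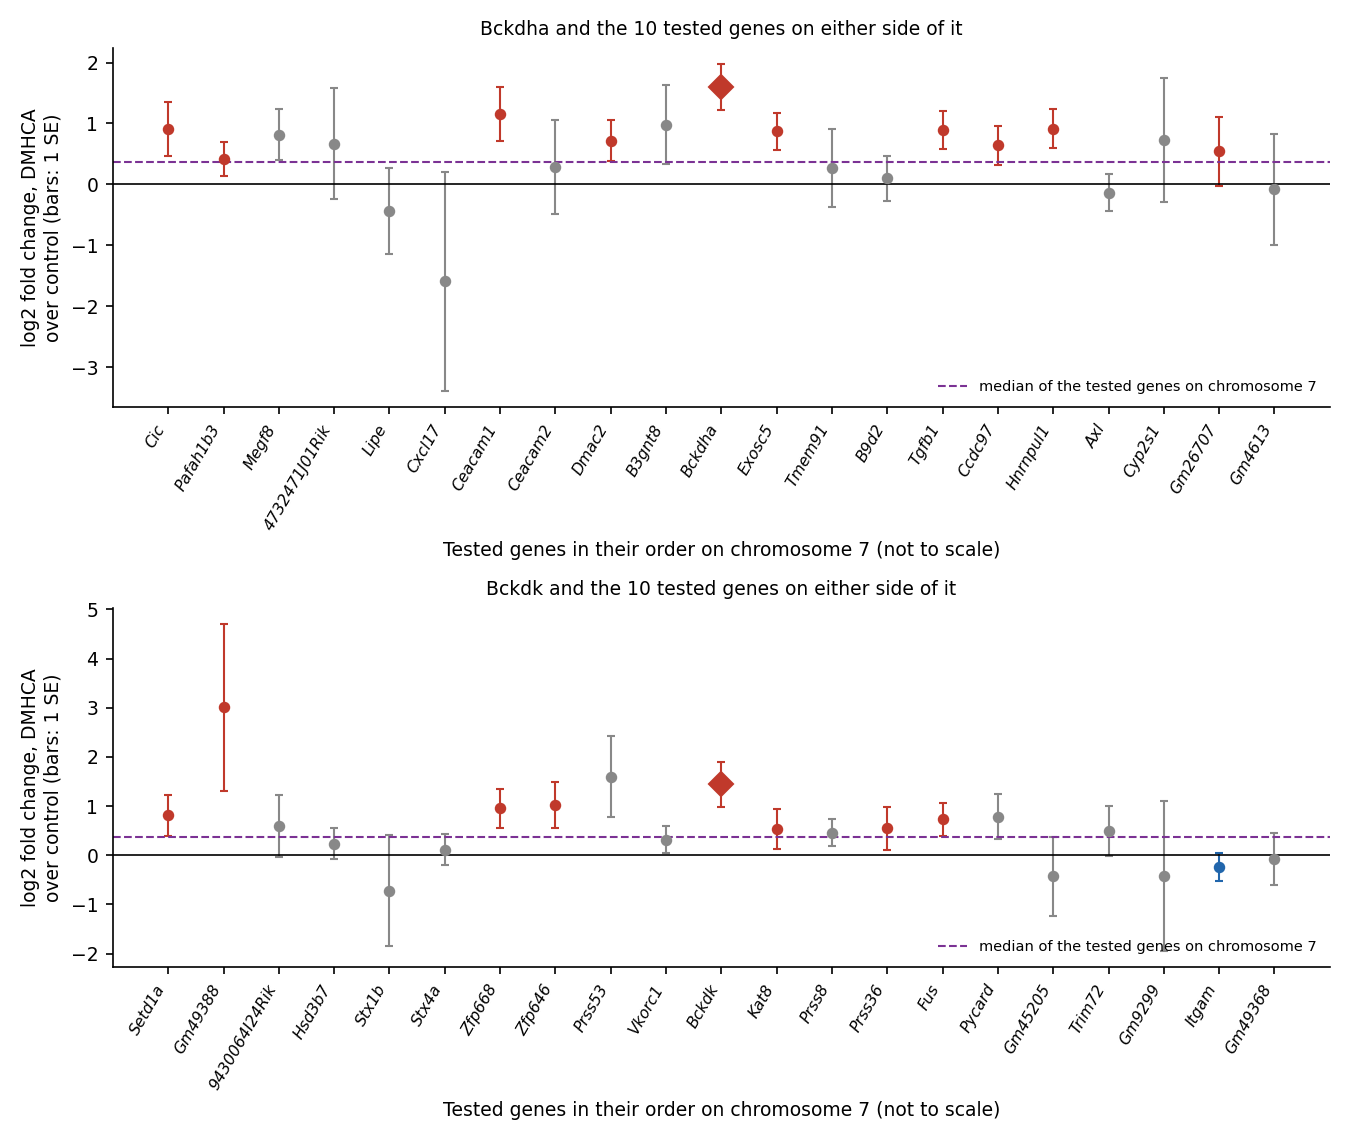
Log2 fold change, DMHCA over control, with 1 SE, of Bckdha (top) and Bckdk (bottom) and of the 10 tested genes on either side of each, in their order on chromosome 7; red and blue mark genes whose DMHCA samples lie above or below all controls, and the dashed line is the chromosome's median of 0.36. Bckdha is the highest of its window, and Gm49388 and Prss53 are above Bckdk.

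Promoter sequences from RefSeq (GRCm38.p6), 250 bases before to 50 after a start, were found for 9 of the 10 genes, with 12 windows in all; Dbt had no entry. The first pair below is shown because Bckdha and Exosc5, which both had DMHCA samples above all controls, begin head to head. Their windows, chr7:25658712-25659011 on the minus strand and chr7:25658903-25659202 on the plus strand, share 109 bases, at chr7:25658903-25659011, which are in capitals and are read from opposite strands.
Bckdha: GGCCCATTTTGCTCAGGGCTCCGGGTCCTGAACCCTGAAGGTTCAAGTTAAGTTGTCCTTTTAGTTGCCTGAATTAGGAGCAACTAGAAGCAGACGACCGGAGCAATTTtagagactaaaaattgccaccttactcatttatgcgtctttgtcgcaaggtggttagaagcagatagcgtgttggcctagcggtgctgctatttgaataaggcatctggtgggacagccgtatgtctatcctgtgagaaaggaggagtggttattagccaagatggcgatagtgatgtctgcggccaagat
Exosc5: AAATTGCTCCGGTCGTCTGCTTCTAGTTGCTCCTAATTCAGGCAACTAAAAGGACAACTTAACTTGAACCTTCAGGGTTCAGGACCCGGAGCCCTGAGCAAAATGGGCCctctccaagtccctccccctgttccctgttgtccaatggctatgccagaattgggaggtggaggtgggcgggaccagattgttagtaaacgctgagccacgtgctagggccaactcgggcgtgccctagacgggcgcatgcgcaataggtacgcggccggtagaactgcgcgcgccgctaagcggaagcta
All windows were searched on both strands for AGGTCA, the core element read by LXR and many other nuclear receptors, for 2 direct copies of AGGTCA with 4 bases between them, for the E box CACGTG and for the SP1 box GGGCGG. The element AGGTCA was in 3 of the 12 windows, against 16.3% of 32851 windows of all genes, and the paired copies were in 0 of 12, against 0.0152% of all. CACGTG was in 0 of 12 windows, against 7.15% of all, and GGGCGG was in 3 of 12, against 35.7%. The window of Bckdha held none of the 4, and that of Exosc5 held CACGTG and GGGCGG outside the shared bases. These matches describe the letters only, and elements with other letters or farther from the start were not searched.

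The next windows are shown because they set the regulators and the beta subunit beside each other: that of Bckdk, at chr7:127903823-127904122 on the plus strand, that of Ppm1k, at chr6:57535438-57535737 on the minus strand, and the one of 2 windows of Bckdhb at chr9:83924887-83925186 on the plus strand. Capitals mark AGGTCA, which was in the windows of Ppm1k and Bckdhb and not in those of Bckdk and Bckdha.
Bckdk: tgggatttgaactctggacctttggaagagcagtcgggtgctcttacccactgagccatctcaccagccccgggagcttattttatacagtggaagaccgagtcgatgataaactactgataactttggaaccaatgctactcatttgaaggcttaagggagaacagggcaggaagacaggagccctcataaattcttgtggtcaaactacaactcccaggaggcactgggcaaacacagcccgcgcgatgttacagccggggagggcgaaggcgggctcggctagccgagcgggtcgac
Ppm1k: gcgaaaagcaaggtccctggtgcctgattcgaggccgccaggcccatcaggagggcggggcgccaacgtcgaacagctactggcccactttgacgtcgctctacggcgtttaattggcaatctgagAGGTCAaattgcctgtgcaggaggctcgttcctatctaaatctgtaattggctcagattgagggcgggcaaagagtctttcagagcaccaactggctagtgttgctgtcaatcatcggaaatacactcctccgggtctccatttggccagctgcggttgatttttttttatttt
Bckdhb: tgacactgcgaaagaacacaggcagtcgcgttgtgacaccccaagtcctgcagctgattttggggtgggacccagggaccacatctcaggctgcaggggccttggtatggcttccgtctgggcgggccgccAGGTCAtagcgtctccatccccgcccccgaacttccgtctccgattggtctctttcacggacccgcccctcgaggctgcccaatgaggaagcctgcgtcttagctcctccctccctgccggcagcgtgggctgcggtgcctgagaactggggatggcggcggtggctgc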

How the data were processed

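The samples were RNA from mammary tissue of 3 control and 3 DMHCA-treated mice by label. Per the paper's methods and the submitters' processing notes, the authors checked reads with FastQC 0.11.9, trimmed adapters with Cutadapt 2.9, and aligned and counted paired reads with RSEM 1.3.1 on a Bowtie2 2.4.1 index of the mouse genome (mm10, Ensembl release 99). The authors deposited RSEM's expected counts for each gene, without normalization, in which reads that match several genes are divided between them. The authors also deposited TPM, which RSEM scales to an equal total per library, and a mean transcript length for each gene. FPKM values were deposited by the authors as well and were not used here. Settings of RSEM and use of strand are not given in the sources used here.

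Expected counts were rounded to whole numbers. DMHCA libraries 1 and 3 were summed, and 3 control samples were compared with 2 DMHCA samples in edgeR 4.0.16 (R 4.3.3), with TMM normalization, filterByExpr (minimum count 10, total 15) and edgeR's quasi-likelihood F-test; Benjamini-Hochberg adjustment covered all 19427 genes. The SE was taken from the fold change and the F statistic. With 5 samples, precision was limited by the spread between samples (a common biological coefficient of variation of 0.504) more than by depth, and a count of 0 does not show that groups are equal. The script was tested on simulated counts with known changes, and it missed most of the smallest changes tried. Alternatives were DESeq2 1.42.0 on 5 samples and on 6 libraries, edgeR on 6 libraries (also with a replicate block), other size factors and filters, TPM in place of counts, and each library left out in turn. Leaving out control libraries in the counts of genes without overlap, repeating these counts in TPM, and repeating ratios and sums in normalized counts were chosen after seeing the data. Gene positions are those of GENCODE mouse release M21, which held 99.6% of the genes. Tables and plots were made with pandas 2.3.3, numpy 2.4.6 and matplotlib 3.10.9 in Python 3.11.15.

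The members and all gene lists were chosen with earlier results of these data known, and 1 gene first listed is not reported here. The genes named are the 10 members; of the pathway and sister lists, those whose groups do not overlap and whose log2 fold change is at least 1 in size, and the gene with the highest TPM of each list; of the marker lists, the most abundant gene and those near 0; and genes that overlap a member or lie next to it. Other names were chosen after their values were seen. Protein measurements, staining and flow cytometry were not analysed here.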

Additional observations from a re-analysis of the deposited data

How the results depend on the processing

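With edgeR the count of genes past an adjusted p under 0.05 was 0 on the 5 samples, on the 6 libraries with or without a replicate block, with DESeq2's size factors, under the stricter filter and without any 1 library, and 16 without a filter on low counts. DESeq2 called 244 genes on the 5 samples and 846 on the 6 libraries. Of the 10 members, which were selected on this contrast so that the count is no test of them, DESeq2 on the 6 libraries called 2, and of the other pathway and sister genes it called 3, against 1 on the 5 samples; every edgeR setting called 0 of either. The cause of these differences was not tested. The median log2 fold change of the members was 0.24 with the replicate block, and 0.13 to 0.53 with 1 library left out. By label, the same-numbered control and DMHCA libraries share only a number. The correlations of their deviations from the group means were -0.104, 0.34 and 0.379. Those of differently numbered libraries ranged from -0.388 to 0.369. The paired fit called 0 genes. Of 150 values of single members under alternatives, 8 had another sign than the value reported, for Bckdhb, Dld, Ppm1k and Mccc1, and 147 were within the spread between samples. Without DMHCA 2, which leaves 1 DMHCA sample assumed to vary like the controls, Ppm1k was at 0.35 and Mccc1 at -0.53, and on the scale of log2(TPM + 0.1) Ppm1k was at 0.38. Bckdha, Bckdk, Ivd, Dbt and Bcat2 were higher with DMHCA under all 15 alternatives each, and Bcat1 was lower under all 15. The alternatives reuse the contrast on which the members were selected, so a constant sign is no test of them.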
